A study of Bos taurus with 6 samples.

Results

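Transcripts of 9 genes that control the breakdown of extracellular matrix were measured in cumulus cells of cows, which form the somatic layers around the oocyte. The genes were chosen by name, with earlier results of these data known, and every array probe that carries one of their symbols was used. These were the metalloproteinase inhibitors TIMP1, TIMP2 and TIMP3, the matrix metalloproteinases MMP2, MMP14 and MMP19, the plasminogen activators PLAT and PLAU, and the serpin SERPINE2. They had 10 of the 43794 probes on the array, 2 for TIMP1 and 1 for each other gene. All 10 exceeded background often enough to be tested, among 32192 tested probes for 12381 named genes.

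In the FID group, cumulus-oocyte complexes from ovaries of slaughtered Holstein cows were matured with 100 µM forskolin, which activates adenylyl cyclase, 500 µM IBMX and 50 µM dipyridamole, a pair of phosphodiesterase inhibitors. The control group had the same medium without these compounds. Per the labels, that medium was TCM-199 with serum, estradiol, pyruvate and gentamicin, and the recipe for either group names no gonadotrophin. The control is named for 6 h while the protocol states 22 to 24 h of maturation, so the time in culture is not settled. RNA of the groups was hybridised together on 6 two-colour arrays, for 3 biological replicates (1, 2 and 4). A replicate was run on 2 arrays that differ in which group carried Cy5. How many animals entered a replicate is not given in the sources used here.

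As background, matrix metalloproteinases are zinc enzymes that are made as inactive precursors and cut collagens and other matrix proteins, and TIMP proteins block their active site. Plasminogen activators cut plasminogen into plasmin, which degrades fibrin and can activate metalloproteinases, and serpins such as SERPINE2 inactivate the activators. Both systems are known for remodelling the follicle wall and the cumulus matrix around ovulation, and cyclic AMP is known to induce PLAT transcription in rat granulosa cells.

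The arrays carried usable signal in both groups. Per array, median probe intensity was 173 to 294 in FID and 143 to 255 in control, and 51.1% to 84.7% of probes in FID and 58.4% to 86.5% in control exceeded the 95th percentile of negative control spots. This share differed by dye, with 51.1% to 71.2% in Cy5 and 75.1% to 86.5% in Cy3 over both groups. The cumulus label was checked against markers of granulosa and cumulus cells. Of 15 listed, 12 exceeded background in FID and control on all 6 arrays, among them FSHR, AMH and INHA, while FOXL2 did so on 3 arrays in each group, SLC38A3 on 3 in FID and 4 in control, and AMHR2 on 2 in FID and 0 in control. Since the arrays measured bulk RNA, fewer cells of a type and less RNA per cell cannot be told apart.

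None of the 9 genes passed the test over the whole array, but their ratios ran in opposite directions. PLAT and TIMP2 had the highest ratios of FID over control, at 2.79-fold and 1.97-fold, and TIMP3, MMP14 and MMP19 the lowest, at 2.33-fold, 2.07-fold and 1.98-fold below control. The log2 ratios of TIMP1, PLAU, MMP2 and SERPINE2 differed in sign between replicates. Fitted log2 ratios of MMP2 and SERPINE2 were close to 0, and SERPINE2 was read near the top of the scanner's range.

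These counts are read against the whole array. With limma and Benjamini-Hochberg adjustment, 0 of 9 members passed, against 2.35% of all 12381 tested genes, which were 131 genes (1.06%) higher and 160 (1.29%) lower in FID. The lowest adjusted p of any tested gene was 0.0476, so every gene that passed lay between this value and the threshold of 0.05. With median centring in place of loess that division was 114 higher and 222 lower. At an unadjusted p under 0.05 there were 4 of 9 members, TIMP2, TIMP3, MMP14 and MMP19, against 28.6% of all genes. In a fit of all 6 arrays that includes the dye and treats replicate as a random block, called the block fit here, 5 of 9 members passed, against 20.7% of all genes. Of these, PLAT and TIMP2 were higher and TIMP3, MMP14 and MMP19 lower, against 8.84% and 11.9% of all genes. The block fit counts the dye-exchanged arrays towards its degrees of freedom, while the biological replicates remain 3.

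Among the activators, PLAT encodes tissue-type plasminogen activator. Its normalized level (log2 intensity, probe EMBV3_36322) was 12.09, 12.92 and 13.35 in FID, against 11.74, 11.79 and 10.37 in control, for replicates 1, 2 and 4. The levels of the groups did not overlap, with all 3 FID values above all 3 control values. The gap differed widely: the log2 ratio was 0.34 in replicate 1, 1.13 in replicate 2 and 2.97 in replicate 4, where FID was the highest and control the lowest of its group. PLAT was higher in FID on 5 of 6 arrays, the exception being replicate 1 with FID in Cy3, at -0.10.

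The fitted log2 ratio of PLAT was 1.48 ± 0.57 (SE, n = 3 replicates; limma's adjusted p = 0.240), with a 95% interval from -0.12 to 3.08. Of all tested genes, 1.65% had a higher ratio, yet the spread between replicates kept PLAT from passing. Its adjusted p in the block fit was 0.0483. Replicate 4 decided the size: without it the ratio was 0.74, and without replicate 1 it was 2.05.

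PLAU, the urokinase-type activator (probe EMBV3_35881), had levels of 9.84, 9.43 and 9.62 in FID, against 8.99, 9.63 and 9.0 in control. The groups overlapped, since replicate 2 ran against the others. The replicate log2 ratios were 0.84, -0.20 and 0.62, and their mean was 0.42 ± 0.24 (SE, n = 3; limma's adjusted p = 0.403; interval -0.26 to 1.11). The dye moved this probe by 0.48 in the block fit, more than its ratio. With FID in Cy5 the ratio was 0.91, and with FID in Cy3 it was -0.061, and each replicate mean holds both orientations. The sign held under 14 of 15 alternatives, but replicate 2 was opposite and the interval includes 0.

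SERPINE2, also called protease nexin-1, inhibits both activators and thrombin. Its levels (probe EMBV3_19433) were 15.23, 15.30 and 15.11 in FID, against 15.30, 15.23 and 15.29 in control, and the groups overlapped. The fitted log2 ratio was -0.06 ± 0.10 (SE, n = 3; limma's adjusted p = 0.794), with an interval from -0.33 to 0.21. The spot was near the top of the scanner's range. It was saturated on 2 arrays in FID and 2 in control, and read 64.2% to 98.4% of the highest probe on its channel in FID and 90.7% to 100% in control. The one FID reading well below the others was 26651 units in replicate 4 with FID in Cy3, against 38256 to 42236 on the other 5 arrays. A ratio measured this close to the ceiling can understate a difference.

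**Figure D1:**
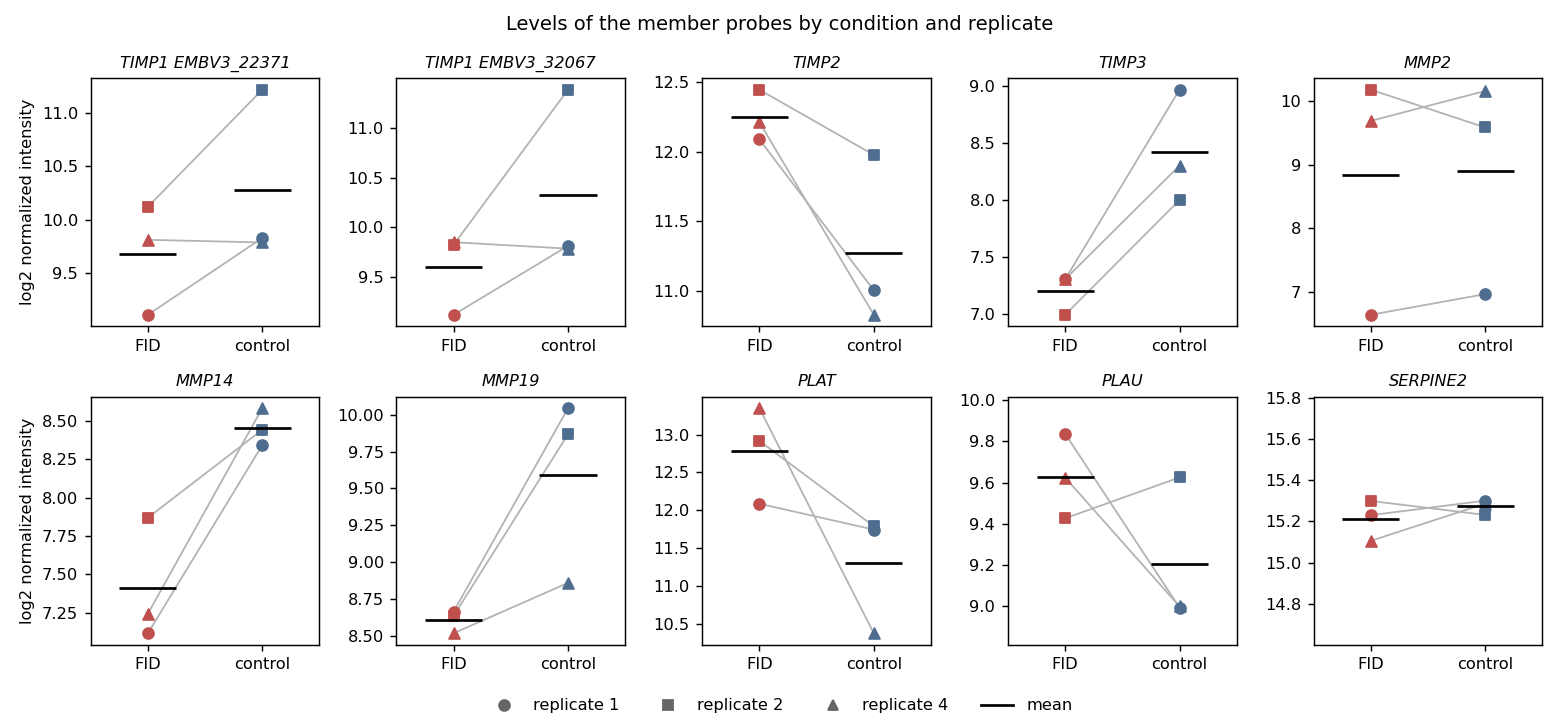
Normalized log2 intensity of each member probe in FID (left) and control (right); symbols are replicates, grey lines join the groups of a replicate, bars are means, and each panel has its own vertical scale. All FID points of PLAT and TIMP2 lie above the control points, and all FID points of TIMP3, MMP14 and MMP19 lie below them.

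The metalloproteinase inhibitors did not move together. TIMP2, which inhibits metalloproteinases and also takes part in the activation of the MMP2 precursor by MMP14, had levels of 12.09, 12.45 and 12.21 in FID, against 11.00, 11.98 and 10.83 in control (probe EMBV3_41559). All FID values were above all control values, and the smallest gap was in replicate 2, where control was highest. The ratio was positive on 6 of 6 arrays, from 0.42 to 1.45. The fitted log2 ratio was 0.98 ± 0.21 (SE, n = 3; limma's adjusted p = 0.101; interval 0.39 to 1.57), and the adjusted p in the block fit was 0.0108. Of all tested genes, 4.54% had a higher ratio. The dye effect on this probe was -0.0016, and the ratio was 0.98 in either dye orientation.

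TIMP3, the inhibitor that binds to the extracellular matrix, had levels of 7.30, 6.99 and 7.30 in FID, against 8.96, 8.0 and 8.30 in control (probe EMBV3_11669). All FID values lay below all control values, and FID varied less than control. The ratio was negative on 6 of 6 arrays, from -1.81 to -0.94. FID exceeded background on 5 of 6 arrays, the exception being replicate 2 with FID in Cy5. The FID level therefore sits near the floor and the ratio may be compressed. The fitted log2 ratio was -1.22 ± 0.18 (SE, n = 3; limma's adjusted p = 0.0641; interval -1.72 to -0.72).

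TIMP3 was the member nearest the threshold, and 3.09% of all tested genes had a lower ratio. It passed under 4 of 14 alternatives, which were the block fit (adjusted p = 0.00270), the variance trend with intensity (0.0308), and the arrays of either dye orientation alone (0.0439 with FID in Cy5 and 0.0419 with FID in Cy3). Its ratio lay between -1.33 and -0.93 over those 14.

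TIMP1, a secreted inhibitor with 2 probes, had levels of 9.11, 10.12 and 9.81 in FID, against 9.83, 11.21 and 9.79 in control, on the brighter probe (EMBV3_22371). The groups overlapped, and the levels of both groups were highest in replicate 2. The replicate log2 ratios were -0.72, -1.09 and 0.02, so replicate 4 showed almost no difference. The other probe, EMBV3_32067, had the same order, with -0.69, -1.55 and 0.06. The fitted log2 ratios were -0.60 ± 0.25 and -0.73 ± 0.35 (SE, n = 3; limma's adjusted p = 0.274 and 0.323), with the first interval from -1.30 to 0.11. The mean on the brighter probe was -0.91 without replicate 4 and -0.35 without replicate 2.

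**Figure D2:**
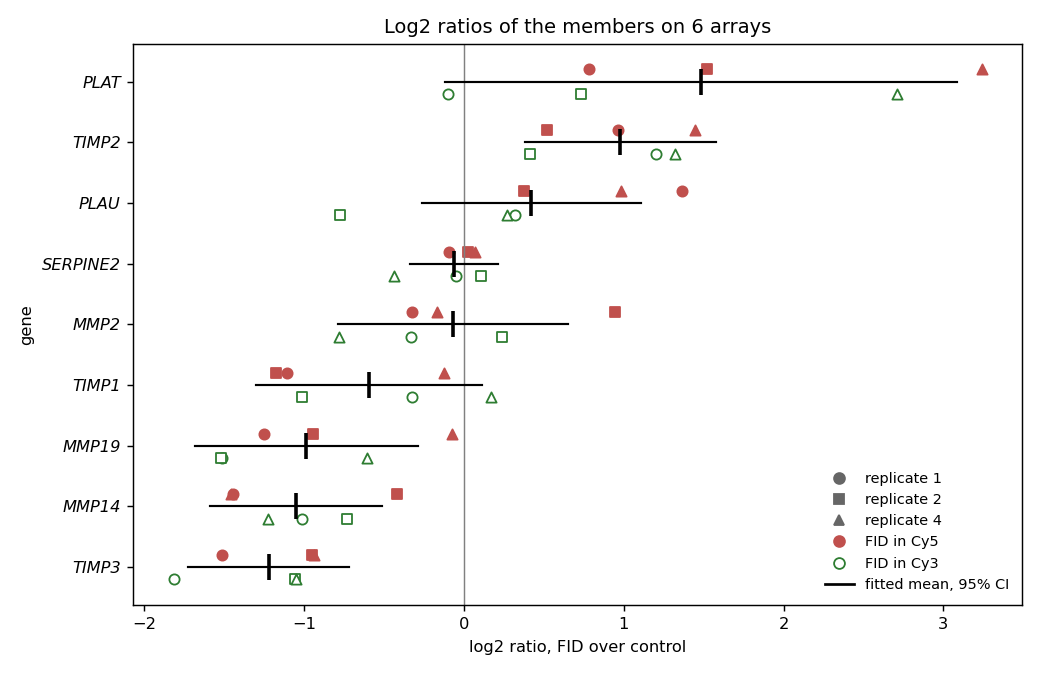
Log2 ratio of FID over control for each member (horizontal axis) on 6 arrays, filled with FID in Cy5 and open with FID in Cy3, with the fitted mean and its 95% interval. TIMP2 is above 0 on all 6 arrays, TIMP3, MMP14 and MMP19 are below 0 on all 6, and PLAT spreads from -0.10 to 3.24.

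Of the metalloproteinases, MMP14 is a membrane-bound enzyme that cuts collagen and activates the MMP2 precursor. Its levels (probe EMBV3_33502) were 7.12, 7.87 and 7.24 in FID, against 8.34, 8.44 and 8.58 in control. All FID values lay below all control values, and control varied little (SD 0.12, against 0.40 in FID). FID exceeded background on 5 of 6 arrays, the exception being replicate 1 with FID in Cy5, and control on 6. The replicate log2 ratios were -1.23, -0.57 and -1.34, with a fitted mean of -1.05 ± 0.19 (SE, n = 3; limma's adjusted p = 0.0814; interval -1.58 to -0.51). The adjusted p was 0.0110 in the block fit, 0.0426 with the variance trend and 0.0413 on the arrays with FID in Cy3. Among tested genes, 4.8% had a lower ratio.

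MMP19, a secreted metalloproteinase that cuts basement membrane proteins, had levels of 8.67, 8.64 and 8.52 in FID, against 10.04, 9.87 and 8.86 in control (probe EMBV3_05427). All FID values lay below all control values and were close to each other (SD 0.08), whereas control spread more (SD 0.64), with replicate 4 the lowest. The replicate log2 ratios were -1.38, -1.23 and -0.34. The fitted mean was -0.98 ± 0.25 (SE, n = 3; limma's adjusted p = 0.126; interval -1.68 to -0.29), and the block fit gave an adjusted p of 0.0154. Of all tested genes, 5.56% had a lower ratio.

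MMP2, the secreted gelatinase that TIMP2 and MMP14 help to activate, varied more between replicates than between groups. Its levels (probe EMBV3_26507) were 6.64, 10.19 and 9.69 in FID, against 6.97, 9.59 and 10.17 in control. Replicate 1 was low in both groups and exceeded background only in control on 1 of its 2 arrays. Replicates 2 and 4 were well above background in both groups and differed in direction, with log2 ratios of 0.60 and -0.47. The fitted ratio was -0.07 ± 0.25 (SE, n = 3; limma's adjusted p = 0.924), with an interval from -0.78 to 0.65, and it turned positive without replicate 1 (0.06) or replicate 4 (0.14).

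Taken by count, the levels of 5 of 9 members did not overlap between the groups, 2 with FID higher and 3 with FID lower, against 29.8% of all tested genes (13.6% and 16.2%). The direction was the same on 6 of 6 arrays for 4 of 9 members, against 27.9% of all tested genes. The median log2 ratio of the 9 was -0.07, with -0.32, -0.20 and -0.18 in replicates 1, 2 and 4, against 0.01 over all tested genes. No single direction therefore describes the set.

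Genes with the most similar pattern were sought for the members with the highest and lowest ratio, by Euclidean distance of the 6 array ratios among all tested genes. Nearest to PLAT were NXF1, an mRNA export factor, at a distance of 0.71, DDN at 0.96 and HERC1 at 1.30, with fitted log2 ratios of 1.55, 1.55 and 1.46. Nearest to TIMP3 were ANKRD40 at 0.26, ANXA2 at 0.49 and DOLK, an enzyme of dolichol phosphate synthesis, at 0.54, with -1.21, -1.16 and -1.16. With 3 replicates such neighbours are a description only.

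The rest of the protease network was read from 5 lists of related genes, in which 64 of 93 listed genes were tested. MMP9 and ADAM8 rose, SERPINA5 fell, and the other 61 did not pass. That is 3 of 64, beside 2.35% of all tested genes. In the block fit 14 of 64 passed, 9 higher and 5 lower, near the 20.7% of all tested genes. The median log2 ratio over the 64 was 0.07, against 0.01 over all tested genes. With any one of replicates 1, 2 or 4 left out, 0 of the 64 passed in limma, and 11 to 17 then had an unadjusted p under 0.05. Over all 12381 tested genes, those fits also had 0 passing, with 2418 to 3261 at an unadjusted p under 0.05.

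MMP9, a secreted gelatinase, had levels of 10.92, 12.84 and 10.44 in FID, against 9.25, 11.58 and 8.87 in control (probe EMBV3_16297). The groups overlapped because both were high in replicate 2, but within every replicate FID was the higher, by 1.67, 1.26 and 1.58. MMP9 rose by a log2 ratio of 1.5 ± 0.12 (SE, n = 3), or 2.83-fold (limma's adjusted p = 0.0476), on 6 of 6 arrays. That adjusted p is the lowest of all tested genes and is shared with SERPINA5, so it does not set MMP9 apart. In the list of 9 other tested metalloproteinases MMP9 was the only one to pass, with 5 ratios positive and 4 negative.

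ADAM8, a membrane metalloprotease known from leukocytes, had levels of 8.09, 8.11 and 8.44 in FID, against 7.06, 7.10 and 7.13 in control (probe EMBV3_32826). All FID values were above all control values, and control exceeded background on 4 of 6 arrays. ADAM8 rose by 1.11 ± 0.11 (SE, n = 3), or 2.17-fold (limma's adjusted p = 0.0492), while its other tested probe had 0.17 ± 0.11. ADAMTS1, which cuts the proteoglycan versican in the cumulus matrix, had the highest ratio of the 5 lists at 1.94 ± 0.41. It did not pass (adjusted p = 0.0977, and 0.00565 in the block fit). Of the 17 tested genes of this family 12 had positive ratios, with a median of 0.08.

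SERPINA5, the protein C inhibitor, which also inhibits urokinase, had levels of 10.16, 10.26 and 9.83 in FID, against 11.40, 12.02 and 11.52 in control (probe EMBV3_36695). All FID values lay below all control values. SERPINA5 fell by 1.56 ± 0.14 on the log2 scale (SE, n = 3), or 2.95-fold (limma's adjusted p = 0.0476), on 6 of 6 arrays. It was the only one of 15 tested genes of the plasminogen system to pass. In that list F2R, the thrombin receptor, had -1.28 ± 0.28 (adjusted p = 0.102, and 0.00845 in the block fit), and its other tested probe had -0.42.

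A list of 9 further inhibitors and activators of metalloproteinases had 0 genes that passed in limma, against 2.35% of all tested genes. It had 1 with an unadjusted p under 0.05, against 28.6% of all tested genes, and a median of 0.09, against 0.01. In that list THBS1, thrombospondin 1, a matrix protein that binds metalloproteinases, had the lowest ratio of the 5 lists at -1.65 ± 0.32 (adjusted p = 0.0871, and 0.00445 in the block fit). In the plasminogen list, ANXA2, an annexin that binds plasminogen and PLAT at the cell surface, had -1.16 ± 0.14 (adjusted p = 0.0543, and 0.00382 in the block fit). PLAUR, the urokinase receptor, named here after its value was seen, had -0.99 ± 0.28 (adjusted p = 0.151, and 0.0207 in the block fit). PLG, plasminogen, of the same list, exceeded background on 1 of 6 arrays in FID and 0 in control and was not tested.

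**Figure D3:**
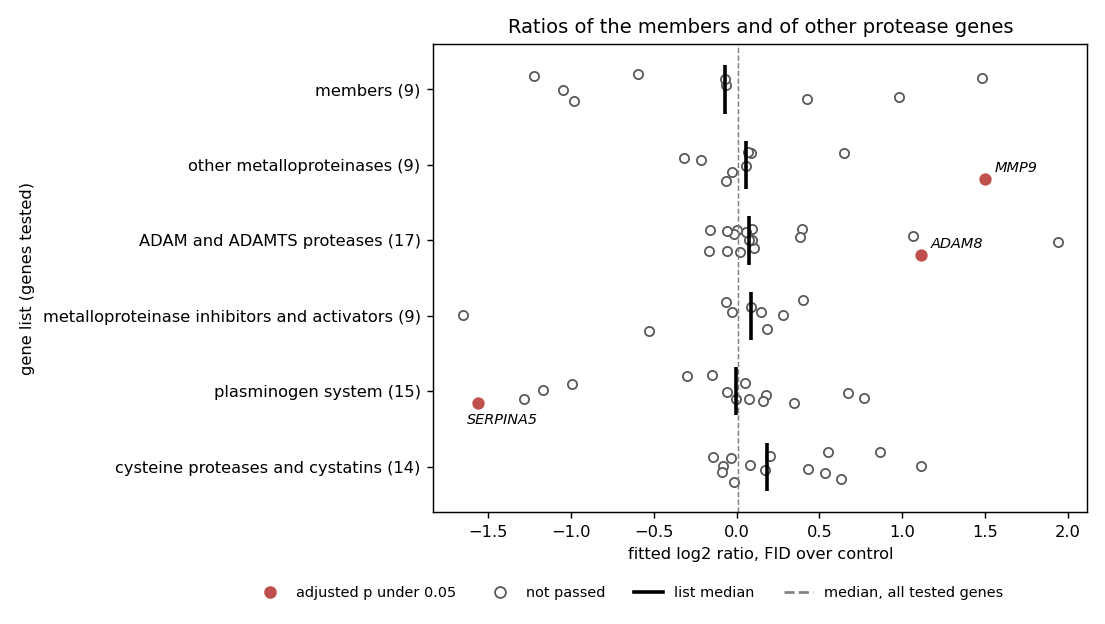
Fitted log2 ratio of FID over control (horizontal axis) for each tested gene of the members and of 5 related lists; red points passed at an adjusted p under 0.05, bars are list medians, and vertical position within a list has no meaning. The members spread from -1.22 to 1.48, and MMP9, ADAM8 and SERPINA5 are the genes that passed.

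Cell type markers were read beside these ratios. Of the 15 granulosa and cumulus markers 13 were tested and 0 passed in limma, while 7 had an unadjusted p under 0.05, against 28.6% of all tested genes. In the block fit 3 were higher and 4 lower, 7 of 13 against 20.7% of all tested genes. The median log2 ratio of 0.14 covers a wide spread. The ends of that spread, named after their values were seen, were AMH at 1.71 ± 0.24 and INHBB at 1.59 ± 0.20, against the keratins KRT18 at -1.76 ± 0.39 and KRT8 at -2.36 ± 0.29 (SE, n = 3). The mean log2 level of the list was 10.71 to 11.32 in FID, against 10.97 to 11.10 in control.

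For the oocyte, 13 of 15 listed genes were tested, 0 passed, and all 13 had positive ratios, against 6362 of all 12381 tested genes. Their median was 1.39, with replicate medians of 1.11, 2.54 and 0.13. Their mean log2 level was 7.19 to 10.52 in FID, against 6.99 to 8.43 in control. For stroma, theca and fibroblasts, 10 of 13 were tested, and 0 rose and 2 fell, against 1.06% and 1.29% of all tested genes. The 10 ratios were divided, with 4 positive and 6 negative. Their median was -0.25, with replicate medians of -0.43, -0.48 and 0.05. PDGFRA had -2.09 ± 0.14 and LUM -1.49 ± 0.14 (SE, n = 3; limma's adjusted p = 0.0476 and 0.0492). In the block fit 0 were higher and 4 lower, of 10, against 8.84% and 11.9% of all tested genes. This adds ACTA2 at -1.06 ± 0.30 and DCN at -0.60 ± 0.12, both named after their values were seen. The sign of DCN followed the dye, with 0.11 to 0.30 with FID in Cy5 and -1.74 to -0.99 with FID in Cy3. Its dye effect of 0.79 was larger than its ratio, and FID exceeded background on 3 of 6 arrays. The mean level of the list was 8.43 to 9.06 in FID, against 9.08 to 9.28 in control, and FAP was above background on no array.

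For blood and immune cells, 10 of 15 were tested and 0 passed, with a median of 0.19 and mean levels of 7.5 to 8.03 in FID, against 7.35 to 7.60 in control. TYROBP was above background on no array, while 4 of the list exceeded background in FID and control on all 6 arrays. These 4, named after their values were seen, were PTPRC, CD68, HBA and CD74. Their log2 ratios were 0.29 ± 0.38, 1.15 ± 0.57, 0.94 ± 0.29 and 0.28 ± 0.08 (SE, n = 3). Of the 10 tested genes of the list, 7 ratios were positive and 3 negative. PTPRC had levels of 7.71, 11.16 and 10.59 in FID, against 7.87, 9.83 and 10.89 in control. For endothelium, 7 of 10 were tested and 0 passed, with a median of 0.01 and mean levels of 7.22 to 7.41 in FID, against 7.16 to 7.31 in control. At an unadjusted p under 0.05 there were 3 of 13 tested genes of the oocyte list and 4 of 10 of the stromal list. For the blood list there were 3 of 10 and for the endothelial list 2 of 7, against 28.6% of all tested genes. In the block fit 2 genes of the oocyte list and 2 of the blood list were higher and 0 lower, and 0 of the endothelial list passed. Of all tested genes, 8.84% were higher and 11.9% lower in that fit. The part of cumulus, oocyte, stromal, or blood and immune cell RNA in the ratios of the members was not tested.

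**Figure D4:**
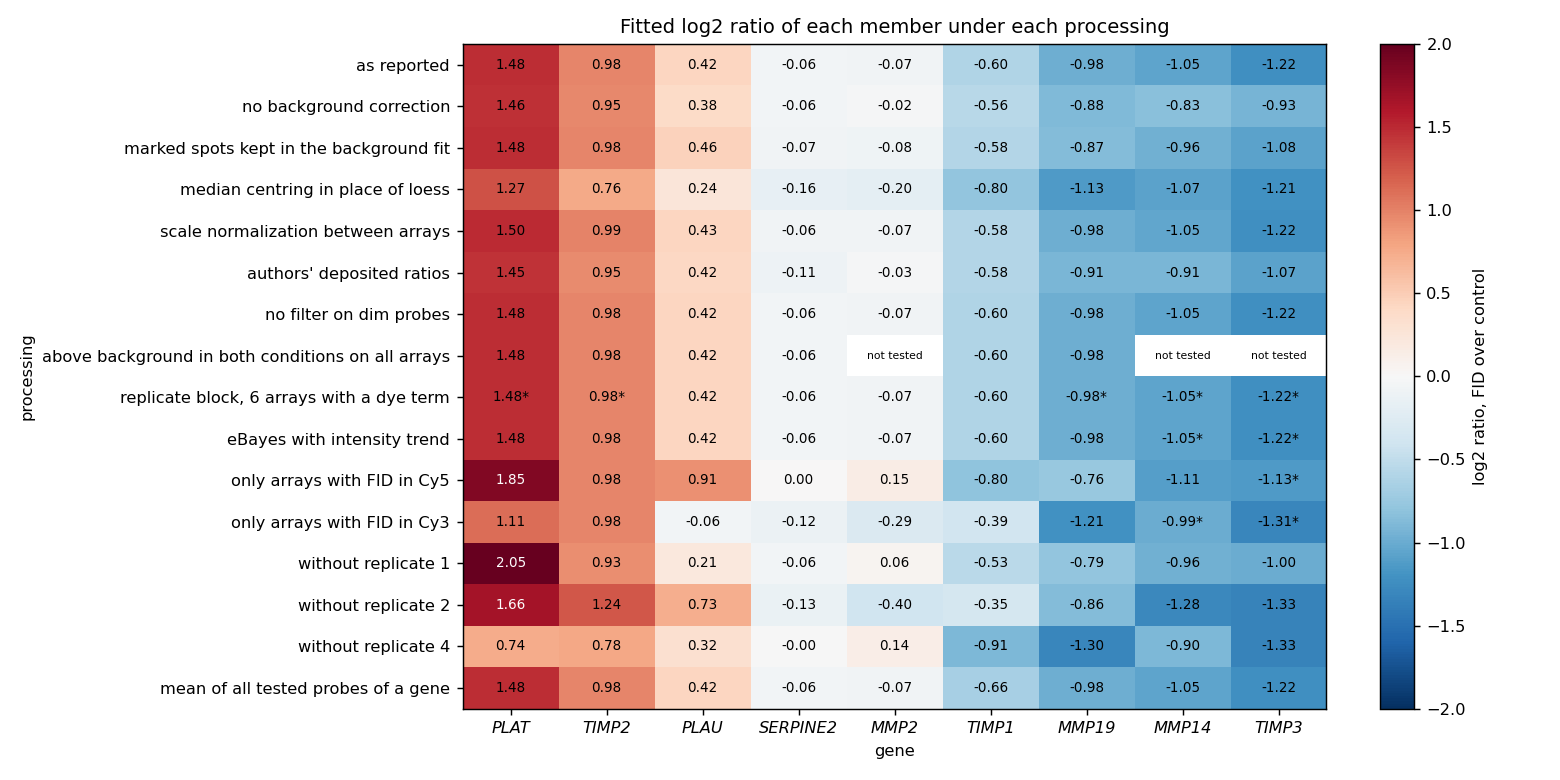
Fitted log2 ratio of FID over control for each member (columns) under each processing (rows), with colour from blue (below 0) to red (above 0) and an asterisk for an adjusted p under 0.05. The signs of PLAT, TIMP2, TIMP1, MMP19, MMP14 and TIMP3 are the same in every row in which they were tested, while those of PLAU, SERPINE2 and MMP2 are not.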

How the data were processed

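The deposited scanner files hold raw spot intensity and local background intensity for either dye, per the file headers. RNA was amplified by T7 RNA polymerase in 2 rounds and then labelled chemically with Cy3 or Cy5, per the labels' protocols. The authors also deposited log2 ratios, whose normalization is not given in the sources used here. These ran as Cy5 over Cy3 (slopes of 0.972 to 0.995 and correlations of 0.994 to 0.998 with the ratios computed here, medians of -0.018 to -0.0029). Their centring stays unknown, and they were used as an alternative.

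Spots marked to be ignored (13 to 88 per array) were left out. Mean intensities, with median local backgrounds, were corrected by normexp (offset 50) and normalized by loess within arrays, in limma 3.58.1 and R 4.3.3, with control spots at weight 0. Ratios of the arrays with FID in Cy3 were turned to read FID over control, and the 2 arrays of a replicate were averaged, giving n = 3. Levels are loess and Aquantile normalized log2 channel values, averaged likewise. A probe was tested where FID or control exceeded background, the 95th percentile over 153 negative control spots, on 4 or more of the 6 arrays. Ratios were tested against 0 with lmFit and eBayes (2 residual and 1.85 prior degrees of freedom), adjusted by Benjamini-Hochberg across all probes tested, threshold 0.05. A check of the test on simulated data used changes larger than any member's ratio, so smaller ratios were not examined by it. A gene was represented by its brightest tested probe. Symbols come from the platform annotation, and no genome build is given, so no coordinates are printed. The number of biological replicates, 3, limits the precision.

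The members, the lists and the omission of marked spots were chosen with earlier results of these data known. Named genes are the 9 members, the genes of the related lists that passed or had the 3 highest or 3 lowest ratios, marker genes that passed, and the 3 genes nearest to the members with the highest and the lowest ratio. Outside this rule, and chosen after values were seen, are the cumulus markers named in the check of the label, markers or list genes named for being at background, and those said in the text to be named after their values were seen. Replicate numbers pair the arrays because each replicate was hybridised with the dyes exchanged, per the labels. Ratios of such pairs correlated at 0.552 to 0.807 across probes, against 0.562 to 0.613 for other replicates in the same dye and 0.336 to 0.462 in the other dye.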

Additional observations from a re-analysis of the deposited data

How the results depend on the processing

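Each member had 14 or 15 alternatives. PLAT, TIMP1, TIMP2 and MMP19 kept their direction in 15 of 15, and TIMP3 and MMP14 in the 14 that tested them. MMP2 turned to 0.15 on the arrays with FID in Cy5 alone and 0.06 without replicate 1, and lay between -0.40 and 0.14 over the fits without replicate 1, 2 or 4. SERPINE2 turned to 0.0023 with FID in Cy5 and PLAU to -0.061 with FID in Cy3. The count of members that passed, 0 as reported, was 5 with the replicate block, 2 with the variance trend, 1 with FID in Cy5 and 2 with FID in Cy3. For the related lists, 3 as reported, it was 14 with the replicate block, 6 with the variance trend and 9 with FID in Cy3. It was 0 in limma without background correction, with marked spots kept in the background fit, and with the authors' deposited ratios, where 19 had an unadjusted p under 0.05 in each. For all genes, 291 as reported, it was 2569 with the replicate block, 659 with the variance trend, 797 with FID in Cy5, 1119 with FID in Cy3 and 536 among probes above background in both groups on all arrays. It was 0 under the same 3 settings, with 3347 to 3482 genes at an unadjusted p under 0.05. Without replicate 1, 2 or 4 the counts were 0 to 0 for members, related lists and all genes, with 2418 to 3261 genes at an unadjusted p under 0.05. The cause of these changes was not tested, except that leaving out a replicate leaves 2. Slide or scan as a block was not run, since neither was read from the files. Signal over background limits TIMP3 and MMP14, whose FID channel is dim, and MMP2 in replicate 1.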

Other observations

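Cathepsins, which act mainly in lysosomes, and related proteases and cystatins were a further group. The list is mostly of cysteine proteases and also holds CTSD, an aspartic protease. Of 15 listed genes 14 were tested, 0 passed in limma over all genes, 6 had an unadjusted p under 0.05, against 28.6% of all tested genes, and 9 ratios were positive. Their median log2 ratio was 0.18, with 0.14, 0.21 and 0.50 in replicates 1, 2 and 4, against 0.01 over all tested genes. In the block fit 3 of 14 passed, all higher, near the 20.7% of all tested genes called in that fit. These 3 are named after their values were seen. CTSS, cathepsin S, had 1.11 ± 0.23 (SE, n = 3; limma's adjusted p = 0.0937), CTSB, cathepsin B, 0.86 ± 0.20 (adjusted p = 0.114), and CST3, cystatin C, an inhibitor of both, 0.55 ± 0.09 (adjusted p = 0.0737). The block fit gave CTSS an adjusted p of 0.00956, CTSB 0.0186 and CST3 0.0355. A dimmer probe of CTSS had 0.06.

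TIMP4, the remaining TIMP gene, named after its value was seen, had a log2 ratio of 0.18 ± 0.10 (SE, n = 3; limma's adjusted p = 0.386), and exceeded background on 6 of 6 arrays in both groups.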
